A study of Mus musculus with 30 samples.

Results

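The regions described here were open, that is, accessible to the Tn5 transposase, in brain endothelial cells (ECs) both directly after isolation and after culture. Peaks of 8 ATAC-seq peak lists were merged wherever they overlapped by 1 base or more, which gave 124834 intervals, and the 16969 intervals with a peak in all 8 lists (13.6%) are called shared open regions (members in the plots). They were thus chosen by the peak calls of these 8 lists, so heights in the lists are given as a description without a test. Readouts that the choice did not use are the peaks of beta-catenin stabilized cultures and the RNA-seq libraries, and tests are given for those only.

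The 2 acutely isolated libraries held GFP-positive cells sorted by FACS from brains of adult mice homozygous for Tie2-GFP, in which the Tie2 promoter marks ECs. The 6 WT cultures were brain ECs grown for 8 days on collagen after puromycin selection, which spares cells that carry the efflux pump of brain ECs. Replicates 1 and 2 came from C57BL/6J mice by a papain protocol (method A), and replicates 3 to 6 came from Ctnnb1flex3/+;Tie2-GFP mice by a homogenization protocol (method B), where the flex3 allele stays unrecombined because no Cre is present. The 2 stabilized cultures came from Ctnnb1flex3/+;Pdgfb-CreER;Tie2-GFP mice by method B, in which a Cre driven by the Pdgfb promoter in ECs removes exon 3 of the beta-catenin gene. The protocols are given as in the study's methods, and a legend of the study assigns them to the WT cultures differently. Mice with the flex3 allele, with or without Cre, had received 4-hydroxytamoxifen early after birth. All mice were males and brains of several young adults were pooled for each culture. Replicates of the WT cultures were wells, 2 for each of 3 experiments, and whether the 2 stabilized ATAC-seq libraries came from 1 experiment is not given in the sources used here. RNA-seq libraries came from the same kinds of cell, with 2 libraries of acutely isolated ECs, 2 of GFP-negative brain cells and 6 of WT cultures. P-values therefore measure the spread between these libraries, which within an experiment is the spread between wells.

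In a nucleus most DNA is wrapped around histones, and stretches without a stable nucleosome can be cut by the transposase. Promoters of genes in CpG-rich sequence are open in most cell types, often also where the gene is silent, whereas open regions far from starts (distal regions, mostly enhancers) differ between cell types and hold sites of the transcription factors of the cell. In brain ECs the barrier program depends on beta-catenin, which acts through TCF/LEF factors, while AP-1 factors (FOS and JUN proteins) and TEAD factors respond to growth, stress and the stiffness of the substrate.

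The lists differed in size, from 31844 to 98840 peaks, and the shared open regions took 18.5% of the peaks of the largest list and 56.1% of those of the smallest. Of the 4770 intervals with a peak in 7 of the 8 lists, 2764 lacked a peak only in WT culture replicate 2 and 1446 only in acutely isolated replicate 2, which are the smallest lists. Without WT culture replicate 2 the rule would have given 19734 regions. Peak height is the fold enrichment of reads over the local background that the authors' peak caller gave, and the highest peak of a list in an interval was taken. The median height of the shared open regions in a list was lowest at 8.17, in WT culture replicate 2, and in each list it was from 1.41 to 2.55 times the median of the other intervals. Where heights are compared between libraries, they were put on a log2 scale and centred on the median of the shared open regions in that library. Heights printed for single regions are not centred.

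The cell type was checked with marker genes. Of 30 general EC genes, 27 had a shared open region at the promoter, whereas none of 7 neuron, 6 oligodendrocyte, 6 microglia, 8 pericyte and smooth muscle and 5 erythrocyte markers did. Such a region was also at the promoter of 14 of 15 housekeeping genes and of 50.4% of all genes with RNA values. It was so for 77.1% of the genes tested in culture, and a high share is thus not particular to EC genes. Among 6 astrocyte markers Gja1 had such a region, and 2 of 6 fibroblast markers did. RNA of other cells was nevertheless present in the acutely isolated libraries. The TPM summed over the list was 4751 and 31511 for erythrocyte markers in the acutely isolated ECs against 0 to 1.39 in the WT cultures, and 479 and 570 for pericyte and smooth muscle markers against 503 to 3034. For astrocyte markers it was 87.7 and 467 against 3.36 to 45.8, for oligodendrocyte markers 13.7 and 84 against 5.25 to 36.2, and for neuron markers 17.7 and 38.4 against 7.72 to 16.8. Microglia markers summed to 0.556 and 5.5 against 0.249 to 4.67, with Aif1 at 0 in both acutely isolated libraries, and fibroblast markers to 15.4 and 15.7 against 7.11 to 41.5. Of the 8 pericyte and smooth muscle markers, 5 were called lower and 2 higher in culture in the RNA test described below. Their sum thus does not stand for each marker. Among all genes tested, 10.2% were called lower and 13.5% higher. Mog, Olig2 and Alas2 were at 0 in each of the 6 WT cultures. The part of these cells in the RNA results below was not tested, and in such bulk samples fewer cells of a type and less RNA per cell cannot be told apart.

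To show what the regions look like, 200 bases are printed for 7 of them, read from the RefSeq genome of GRCm38, the build of the peak lists. Distal regions are centred on the summit of the highest peak and read on the plus strand, and promoters are the 200 bases before the transcript start nearest the summit, on the strand of the gene, which is plus for each. Capitals mark matches to the motifs listed later, which are TCF/LEF and SOX in the region near Nebl, AP-1 in those near Gja1 and Rabgap1l and at Abcb1a, and SP/KLF at Axin2 and Thbs1. The first 3 were picked for large height differences between acute isolation and culture, and the promoters belong to a beta-catenin target (Axin2), a barrier gene (Abcb1a), the gene whose promoter was most above the cultures in the acutely isolated ECs (Ptprb) and a target of YAP and TEAD (Thbs1).
near Nebl, chr2:17812397-17812596: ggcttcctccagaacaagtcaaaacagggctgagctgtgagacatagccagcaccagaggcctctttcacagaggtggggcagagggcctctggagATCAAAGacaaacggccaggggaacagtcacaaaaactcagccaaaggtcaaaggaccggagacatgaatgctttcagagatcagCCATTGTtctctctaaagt
near Gja1, chr10:56582134-56582333: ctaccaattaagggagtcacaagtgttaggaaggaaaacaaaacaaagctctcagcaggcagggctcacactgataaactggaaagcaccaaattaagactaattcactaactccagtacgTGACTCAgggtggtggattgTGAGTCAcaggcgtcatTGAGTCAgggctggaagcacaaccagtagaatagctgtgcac
near Rabgap1l, chr1:160531524-160531723: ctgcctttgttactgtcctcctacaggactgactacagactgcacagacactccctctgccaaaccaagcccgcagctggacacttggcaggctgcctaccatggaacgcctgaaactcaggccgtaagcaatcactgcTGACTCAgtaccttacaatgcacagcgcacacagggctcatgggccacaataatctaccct
Axin2 promoter, chr11:108920149-108920348: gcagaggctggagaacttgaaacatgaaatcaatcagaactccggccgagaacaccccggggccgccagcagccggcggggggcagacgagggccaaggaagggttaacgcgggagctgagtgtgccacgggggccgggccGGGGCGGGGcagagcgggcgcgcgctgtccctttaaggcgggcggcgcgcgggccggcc
Abcb1a promoter, chr5:8659877-8660076: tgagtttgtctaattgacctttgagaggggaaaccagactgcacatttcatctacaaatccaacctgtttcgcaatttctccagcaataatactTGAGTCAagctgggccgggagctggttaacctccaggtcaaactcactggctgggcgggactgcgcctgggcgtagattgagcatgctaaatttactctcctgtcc
Ptprb promoter, chr10:116301172-116301371: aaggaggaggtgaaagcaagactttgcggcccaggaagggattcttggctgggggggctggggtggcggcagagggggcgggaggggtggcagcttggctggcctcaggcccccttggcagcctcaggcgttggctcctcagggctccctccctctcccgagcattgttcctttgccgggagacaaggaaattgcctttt
Thbs1 promoter, chr2:118111676-118111875: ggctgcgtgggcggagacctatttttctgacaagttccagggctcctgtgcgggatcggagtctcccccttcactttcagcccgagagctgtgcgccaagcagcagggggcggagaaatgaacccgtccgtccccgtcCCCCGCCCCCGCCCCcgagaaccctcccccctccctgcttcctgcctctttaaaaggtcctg
These windows differ in base composition. The Axin2 promoter had 72.0% G and C and 23 CpG dinucleotides, the Abcb1a promoter 49.0% and 5, and the distal region near Gja1 46.5% and 2 with 3 AP-1 matches that start at bases 122, 142 and 159. In the region near Nebl, the TCF/LEF match starts at base 97, next to the summit, and the SOX match at base 182.

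Shared open regions lay mainly at promoters. Of the 16969, 10486 (61.8%, Wilson 95% interval 61.1 to 62.5) overlapped the stretch from 1000 bases before to 100 after a transcript start of a protein-coding gene, as annotated in GENCODE M21. A further 3122 (18.4%) lay in introns, 2802 (16.5%) between genes and 559 (3.29%) in exons. Among all intervals the promoter share was 15.2%, and it was 5.39% for the 3712 intervals with a peak in both acutely isolated lists and in no WT culture (lost) and 7.20% for the 10217 with a peak in all 6 WT cultures and in no acutely isolated list (gained). The share did not grow evenly with the number of lists. It was 6.11% for intervals of 1 list, 9.55% for 6, 21.3% for 7 and 61.8% for 8. Intervals cover counting error only.

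**Figure D1:**
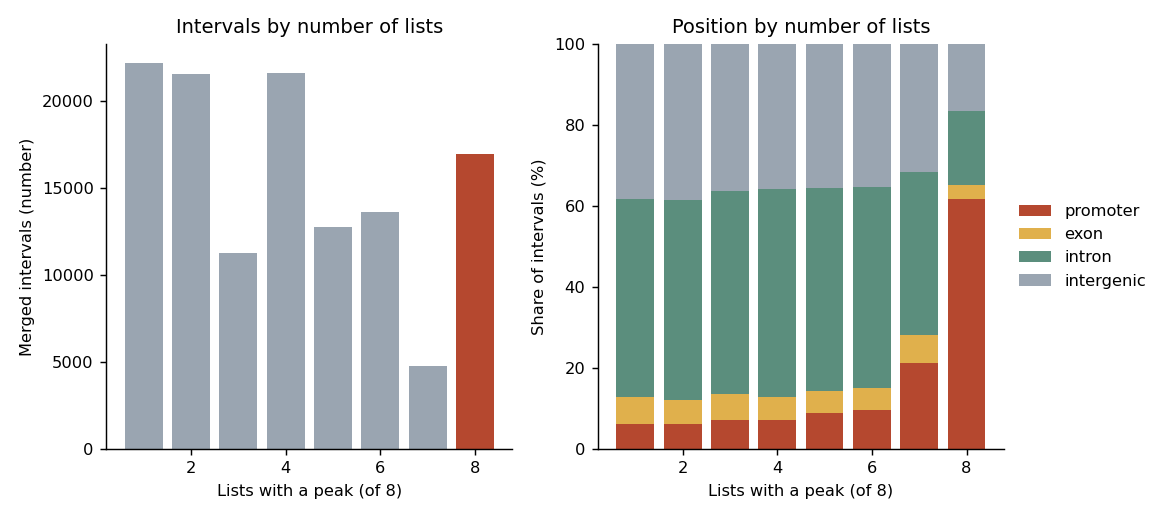
Left, number of merged intervals (y axis) by the number of lists, of 8, in which they had a peak (x axis), with the shared open regions in red. Right, share of the intervals in percent (y axis) that lay at a promoter, in an exon, in an intron or between genes, for the same numbers of lists, with the promoter share at 61.8% for 8 lists and at 21.3% or less for fewer.

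They were also wider and richer in CpG than the rest. The median width was 958 bases (from 205 to 5251) against 403 for all intervals, the median G and C content of the 200 bases at the summit 61.5% against 49.5%, and the median ratio of observed to expected CpG 0.678 against 0.221. Promoter regions alone had 66.0% and 0.822, distal ones 53.5% and 0.300. Annotated repeats took 5.73% of their bases on average against 12.4%. On the X chromosome lay 431 of them (2.54%, against 2.82% of all intervals).

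The promoter regions covered 11026 of 22028 annotated protein-coding genes (50.1%). Of the 10486, 9166 lay at the promoter of 1 gene, 1266 at those of 2 and 54 at those of more, and 1181 (11.3%) held starts on both strands, so that 1 region can stand for neighbouring genes that are read in opposite directions. Starts of long noncoding RNAs were held by 1454 regions (8.57%, against 2.57% of all intervals). Transfer RNA genes, which RNA polymerase III reads, lay in a shared open region for 137 of 403, and 275 lay in any interval.

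The 6483 distal regions lay at a median of 18.7 kb from the nearest start, with 32.9% within 10 kb and 11.3% beyond 100 kb. They were spread over 3847 nearest genes, of which 2451 had 1 such region. On the assembled chromosomes most lay near Tcf4 with 15, Klf7 and Smad7 with 11 each and Tns1 with 10. Other genes with several, picked here for their known roles, were Klf6 with 9, which codes for a zinc finger factor, Ets1 with 8, which codes for a factor of the ETS family that directs EC genes, and Flt1 with 8, which codes for a VEGF receptor. For Flt1 they lay from 1.36 to 61.1 kb from the start and for Ets1 from 9.79 to 244 kb.

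The highest peaks of all were alike in every library. The 10 regions with the highest median height had medians from 29.2 to 44.2, and the highest library exceeded the lowest by at most 1.41-fold. The first, chr12:3109777-3110193, had heights of 44.0 and 43.4 in the acutely isolated ECs and of 42.9, 44.3 and 44.8 (lowest, median and highest of 6) in the WT cultures, and the 200 bases at its summit were 100% annotated repeat. The third, chr6:9889848-9890252, had heights of 41.5 and 41.6 against 41.2, 43.6 and 44.1. The 200 bases at the summit of the tenth were 96.5% annotated repeat, and how reads in repeats were placed was not tested. None of the 10 lay at a promoter of a protein-coding gene. In 5 of them from 28.3% to 59.0% of the 31-base words also occur in the mitochondrial genome, and whether reads from mitochondria were placed there was not tested. Over the 16929 regions on assembled chromosomes this share was above 0 in 13 and above 50% in 4. Another 40 regions lay off these chromosomes, 3 of them on the mitochondrial genome itself, which is not packed in nucleosomes. The heights of those 13 are uncertain.

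Across the regions, heights followed library pairs. Pearson's r over the 16969 centred heights was 0.944 for the 2 acutely isolated libraries and from 0.898 to 0.969 for wells of the same experiment. It was from 0.712 to 0.907 for WT cultures of different experiments and from 0.484 to 0.633 for an acutely isolated and a cultured library. The regions share base composition and background within a library, so these values describe the libraries only.

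Most regions were similar in height before and after culture, and the exceptions lay more often on the culture side and away from promoters. The difference between the mean centred heights of acutely isolated and WT cultured libraries was under 2-fold for 15154 regions (89.3%). Both acutely isolated libraries were above all 6 cultures in 4162 regions (24.5%) and below all 6 in 4044 (23.8%). By percentile rank within the library, these counts were 2436 and 3714. With a difference of over 2-fold as well, 311 regions (1.83%) were higher in the acutely isolated ECs and 1494 (8.80%) in culture. Since all regions here are members, these are the percentages of the whole set. At promoters 131 were higher in the acutely isolated ECs and 340 in culture, and 180 and 1154 were so at distal regions. A difference of over 2-fold was found on the culture side for 17.8% of distal and 3.24% of promoter regions, and on the acute side for 2.78% and 1.25%.

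The regions that stood highest in acutely isolated ECs included the promoter of a receptor phosphatase of ECs. A region between genes, 81.0 kb from the start of Nebl (chr2:17812061-17812899), had heights of 18.9 and 17.9 in the acutely isolated libraries and of 3.59, 4.36 and 5.49 (lowest, median and highest of 6) in the WT cultures, a difference of 2.22 in centred log2 height. The promoter of Ptprb (chr10:116301038-116302177), which codes for the EC phosphatase VE-PTP, had heights of 13.5 and 11.8 against 2.39, 3.70 and 5.46, a difference of 2.04. The groups did not overlap in either case, as the choice of these regions required. The other 3 were an intron region 21.3 kb from the start of Utrn (2.02), the promoter of St3gal6, which codes for a sialyltransferase (1.91), and an intron region 192 kb from the start of Trib2 (1.85).

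On the culture side the promoter of Fggy (chr4:95556916-95557867), which codes for a carbohydrate kinase, had heights of 3.53 and 4.20 in the acutely isolated libraries and of 23.2, 27.4 and 30.2 in the WT cultures, a difference of -2.63 in centred log2 height. The promoter of Msh3, a mismatch repair gene, had 2.99 and 4.33 against 16.7, 25.0 and 29.3 (-2.53). These acutely isolated heights were below the lower quartiles of the shared open regions in the 2 lists, at 7.07 and 6.17. The medians of the other intervals in these lists were 4.32 and 4.20. The remaining 3 were an intron region 77.9 kb from the start of Rabgap1l (-2.52), the promoter of Adam3 (-2.45) and a region between genes 203 kb from the start of Gja1 (-2.43). Each of these 3 held an AP-1 match, as the printed sequences near Gja1 and Rabgap1l show, and so did the promoter of Msh3.

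**Figure D2:**
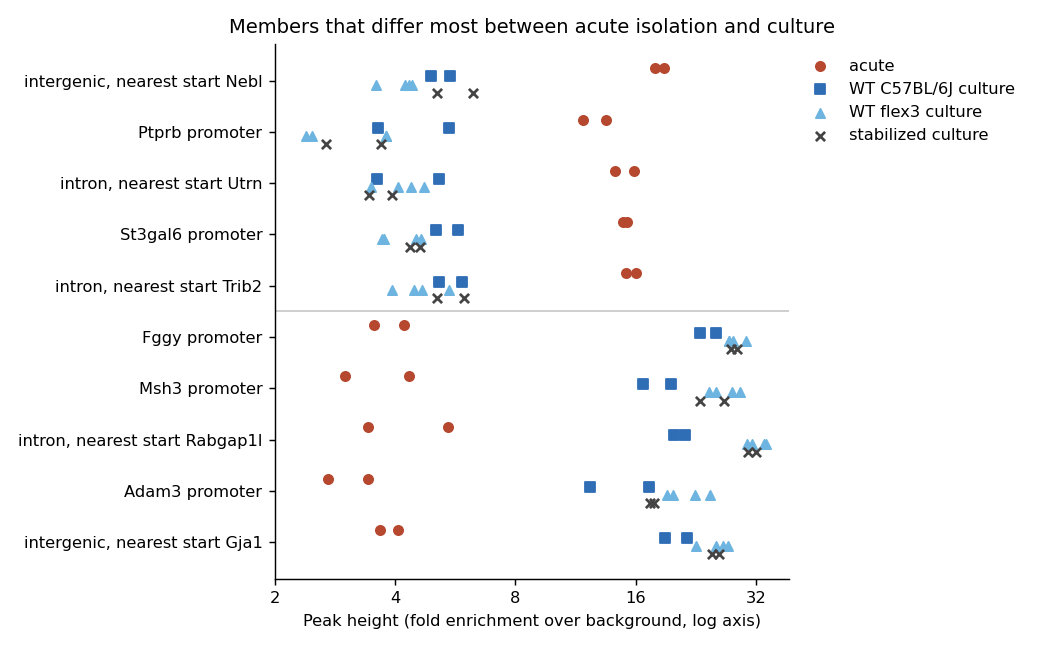
Peak height as fold enrichment over background (x axis, log scale) for the 5 regions in each direction with the largest difference between acutely isolated and WT cultured libraries (rows), with a point for each library of each group. The acutely isolated libraries lie between 11.8 and 18.9 in the upper 5 rows and between 2.72 and 5.43 in the lower 5, and the stabilized cultures, which were not used to choose the rows, lie with the WT cultures.

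The edge of the set was set by weak peaks. The 5 regions just inside, at the promoters of Zfp217, Dynlt1a and Aloxe3 and near Macf1 and Hmox1, had a weakest peak at a -log10 q of 1.86 to 2.23. Among the intervals with 7 peaks that were left out, the 5 with the strongest peaks had a maximum of 576 to 738. Near Gsap the heights were 3.53 in acutely isolated replicate 1, with no peak in replicate 2, and 16.7, 19.0 and 21.1 in the WT cultures. Near Bche, which codes for butyrylcholinesterase, the acutely isolated heights were 20.5 and 22.0, and 1 of the 6 WT cultures had no peak while the others had 3.60 to 6.91. Membership therefore does not mean equal height, and absence from the set does not mean closed chromatin in a group.

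Stabilized beta-catenin cultures gave a readout that the rule did not use. Of the 16969 regions, 16944 (99.85%, Wilson interval 99.78 to 99.9) had a peak in both stabilized lists. The share was 99.05% of the gained, 66.87% of the 7541 partly kept (peaks in both acutely isolated and in 1 to 5 WT lists), 0.5388% of the lost and 53.59% of all intervals. Of the 25 regions without both peaks, 6 had neither. Those 6 lay near St6galnac1, Cog6, Ndst3, Wasf2 and Dlc1 and at the promoter of Icam4. In the Icam4 promoter the heights were low, at 4.88 and 3.51 in the acutely isolated libraries and 3.34, 4.60 and 5.00 in the WT cultures.

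Heights in stabilized and WT cultures of the same flex3 background were compared with limma on the 59167 intervals that had a peak in all 2 stabilized and 4 WT lists. For this test the log2 heights were centred on the median of the tested intervals. At an adjusted p under 0.05, 3 intervals were called (0.00507%), none of them a shared open region, and 6248 (10.6%) had an unadjusted p under 0.05. Among the 16944 shared open regions tested, 2726 (16.1%) had an unadjusted p under 0.05, 2557 of them higher and 169 lower in the stabilized cultures, and the smallest adjusted p from limma was 0.272, at a region of the mitochondrial genome, and 0.403 at a nuclear region. Without centring the heights, those numbers were 21 higher and 1814 lower, so that no direction can be read from them. The 2726 became 661 without stabilized replicate 1 and 1379 without stabilized replicate 2. The difference was under 0.5 on the centred log2 scale for 99.0% of them, and 5 differed by over 2-fold. The median was 0.13 (SD 0.16) against 0.05 (SD 0.24) for the other intervals tested. In simulated data with 200 changed regions, the test recovered 0 of the changes of 0.5 in log2 height and 59.5% of those of 1. The lack of calls therefore does not exclude changes of the smaller size. The 3 intervals called were the promoters of Herc2 (3.24 in centred log2 height) and Fkbp4, each with heights of 15.4 to 21.1 in the stabilized and 2.25 to 4.67 in the WT cultures, and an intron region 62.6 kb from the start of Pik3c3 (-1.41).

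The count of called regions depended on which WT experiment was used. Against WT replicates 3 and 4 alone, 1046 of the 16944 shared open regions tested were called higher and 332 lower in the stabilized cultures. Over all 59167 intervals tested, 5034 were called higher and 2883 lower. Against replicates 5 and 6 alone, 1685 and 110 shared open regions were called, and 4945 and 2870 of all intervals tested. Of the 1378 and 1795 shared open regions called, 322 were called in both in the same direction (23.4% and 17.9%) and 66 in opposite directions. With the summed fold enrichment of all peaks in a region in place of the highest, 3 were called, and 7 of all intervals tested. In these comparisons the WT group was 1 experiment, and nothing in the sources used here ties a stabilized library to a WT experiment, so that genotype and experiment cannot be told apart. The 2 regions with the smallest p at nuclear sites were an intron region 1.76 kb from the start of Aida, with heights of 6.87 to 8.98 in the WT flex3 cultures and a difference of 1.15 in centred log2 height (SE 0.17, limma adjusted p 0.403), and the promoter of Iars, an aminoacyl transfer RNA synthetase, with 26.3 and 25.9 against 22.7 to 26.4 (limma adjusted p 0.403). Near Aida the C57BL/6J cultures, at 15.5 and 14.7, lay above all 4 WT flex3 cultures too. On the lower side the promoter of Aunip had 4.34 and 3.38 against 9.82 to 16.1 (-1.55 in centred log2 height, limma adjusted p 0.403).

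**Figure D3:**
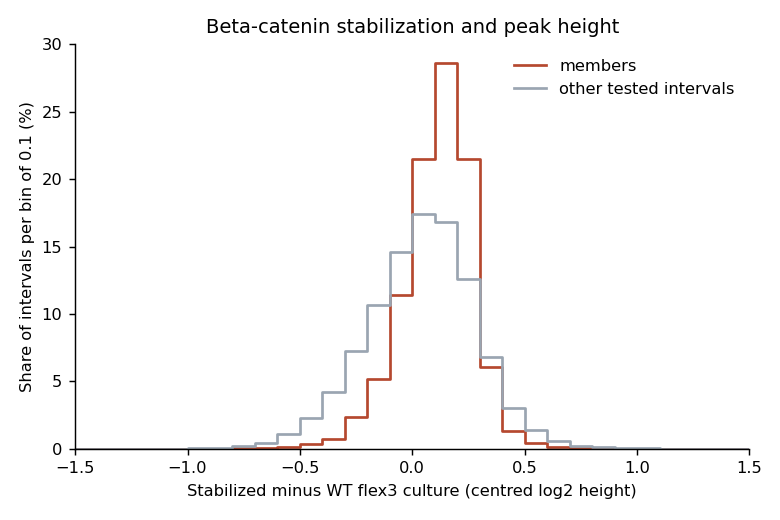
Share of intervals in percent for each bin of 0.1 (y axis) by the difference in centred log2 height between stabilized and WT flex3 cultures (x axis), for shared open regions and for the other intervals tested. The shared open regions have a median of 0.13 and an SD of 0.16, and the other intervals 0.05 and 0.24.

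The stabilized lists also showed whether the height differences of culture were found again in cultures that the choice had not used. Of the 306 regions that were over 2-fold higher in acutely isolated ECs and had a peak in both stabilized lists, both stabilized heights lay below both acutely isolated ones in 305. Of the 1494 that were over 2-fold higher in culture, both lay above in 1492. Over all regions the shares were 45.4% below and 34.4% above. The acutely isolated libraries are the same in both comparisons, so that this is not an independent estimate of their heights. The median difference between acutely isolated and stabilized cultures was 1.21 and -1.33 in centred log2 height for these 2 sets, beside 1.15 and -1.29 for acutely isolated and WT cultures.

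Sequence motifs were counted in the 200 bases at the summit, on both strands, as a share of windows with at least 1 match. The letters searched were CCGGAAGT (ETS core), ACAGGAAG (ETS short), TGANTCA (AP-1), GGGGCGGGG (SP/KLF), GCATGCGC (NRF1), AAGATGGCG (YY1), AGCCAATC (NFY), AGGNGGCGC (CTCF core), ATCAAAG (TCF/LEF), GGAATG (TEAD), TGACGTCA (CRE), TCACGTG (E-box) and ACAATGG (SOX), where N is any base. None of them contains another whole. A match is a description of the sequence and not a bound site.

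At promoters the shared open regions held motifs of factors that act at many CpG-rich promoters. SP/KLF matches were in 20.5% (19.7 to 21.3) of 10482 windows, against 14.3% of all promoter intervals. ETS core matches were in 7.62% against 4.68%, NFY in 5.86% against 3.98%, CTCF core in 5.82% against 5.03%, E-box in 4.80% against 3.62%, NRF1 in 4.27% against 2.78%, CRE in 3.54% against 2.45% and YY1 in 2.77% against 1.62%. The other 5 motifs went the other way. AP-1 matches were in 4.28% against 9.53%, TEAD in 7.16% against 9.55%, ETS short in 2.69% against 3.61%, SOX in 1.42% against 2.11% and TCF/LEF in 1.04% against 1.62%. All promoter intervals here include the shared ones.

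Distal shared open regions held an AP-1 match in 21.8% (20.8 to 22.9) of 6447 windows. This was below all distal intervals (28.0%) and the distal gained ones (50.6%) and above the distal lost ones (3.59%). The share followed the side on which a region was higher. It was 41.0% (38.2 to 43.9) in the 1154 distal regions over 2-fold higher in culture and 5.06% (2.68 to 9.33) in the 178 with sequence that were over 2-fold higher in acutely isolated ECs. TEAD matches were in 20.7% and 10.7% of these sets and in 15.4% of all distal shared regions. TCF/LEF matches showed the reverse order, with 2.17% (1.47 to 3.18) on the culture side, 10.1% (6.49 to 15.4) on the acute side and 2.93% in all distal shared regions, beside 11.4% in the distal lost intervals. ETS short matches were in 9.91% of distal shared regions, with 11.3% and 13.5% on the 2 sides, whose intervals overlap, and in 7.39% of all distal intervals. SOX matches differed little, at 6.07% and 7.87%. At promoters over 2-fold higher on the acute side SP/KLF matches were in 29.0% (21.9 to 37.3) of 131, and on the culture side in 9.41% (6.75 to 13.0) of 340, while AP-1 matches were in 3.05% and 16.5%.

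**Figure D4:**
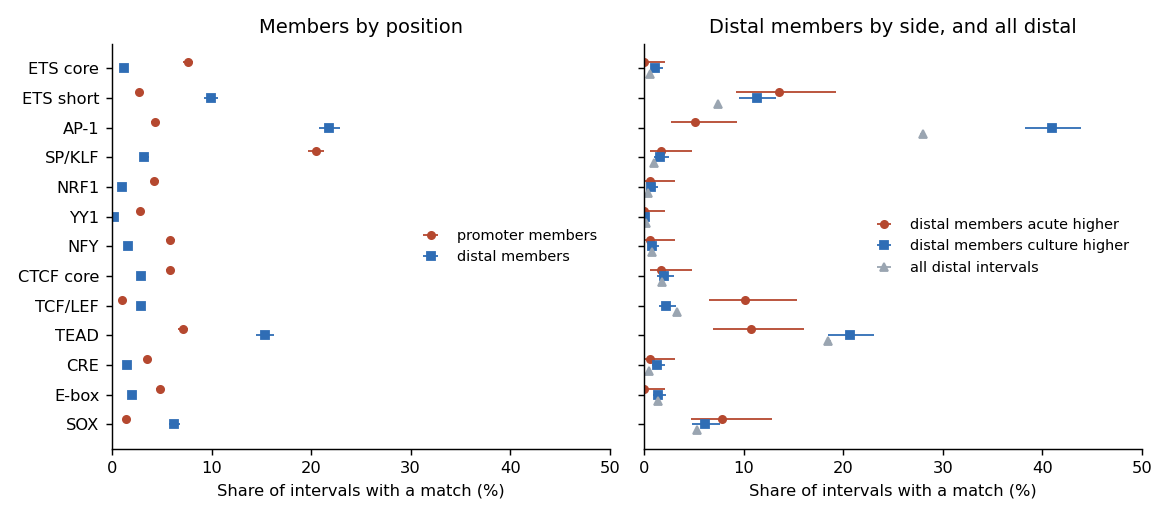
Share of windows of 200 bases with a match to each motif in percent (x axis) with Wilson 95% intervals, at left for promoter and distal shared open regions and at right for distal shared open regions over 2-fold higher in acutely isolated ECs or in culture, with all distal intervals in grey. AP-1 matches were in 41.0% of the culture side and 5.06% of the acute side, and TCF/LEF matches in 2.17% and 10.1%.

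RNA-seq showed what the genes with a shared open region at the promoter did. Counts were tested with edgeR's quasi-likelihood test, and a gene was called at a Benjamini-Hochberg adjusted p under 0.05, a change of over 2-fold and, in the group with the higher level, a TPM of 5 or more in each library. TPM is a level corrected for transcript length and depth. Library totals over genes ranged from 17018961 to 73901239 estimated counts. The acutely isolated libraries were sequenced as single reads and the cultures as paired reads, so that read type and culture cannot be told apart.

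Genes with an open promoter throughout changed their RNA in both directions. Of 13798 genes tested, 13.5% were called higher and 10.2% lower in WT cultures than in acutely isolated ECs. Of the 11019 genes with a shared open region at the promoter and with RNA values, 10634 passed the filter on low counts, and 1683 of them (15.8%) were called higher and 1246 (11.7%) lower. Without the TPM minimum the shares were 22.6% and 17.3%, against 22.9% and 20.5% of all genes tested, so the excess over all genes was not found. In log2 units the median change was 0.14, against 0.10 for all genes. Scaling by library size alone moved that median of all genes to 0.30. When the wells of an experiment were summed, 1097 and 694 of the genes with a shared open region were called. Within single experiments of WT cultures, the counts were 1783 and 1585 for replicates 1 and 2 and 2471 and 1865 for replicates 3 and 4. For replicates 5 and 6 they were 1941 and 1354. Per the study's methods, the RNA-seq libraries of WT replicates 3 and 4 were prepared by another facility. They were also read for more cycles than those of the other WT cultures. The part of facility and read length in these counts was not tested.

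Read from the side of the RNA, most called genes had a promoter that was open before and after culture. A shared open region was at the promoter of 90.2% of the 1866 genes called higher in culture and of 88.4% of the 1410 called lower, beside 77.1% of all genes tested. Called genes had to reach a TPM of 5 and tested genes did not, so these shares compare unlike RNA levels. Of the genes with a TPM of at least 5 in all 8 libraries, 96.2% of 4328 had one, and of those with a TPM under 1 in all 8, 7.77% of 9439 did. Among 68 genes with a TPM of at least 5 in both acutely isolated libraries and under 1 in all 6 cultures, 19 (27.9%) had a shared open region. Among 135 genes with the opposite pattern, 74 (54.8%) had one.

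Acutely isolated GFP-positive ECs were also compared with GFP-negative brain cells. Of 15116 genes tested, the ECs had 8.28% called higher and 7.55% lower. Of the 10634 with a shared open region, 1120 (10.5%) were higher in ECs and 502 (4.72%) in GFP-negative cells. Their log2 fold changes had a median of 0.28, against -0.06 for all genes. Scaling by library size alone gave 811 and 732 (7.63% and 6.88%, against 6.15% and 9.39% of all genes) and moved the median of all genes to -0.44. Without the TPM minimum 1263 and 918 were called (11.9% and 8.63%, against 9.90% and 19.7%). The higher count was 561 and 551 without GFP-negative replicates 1 and 2 in turn (5.25% and 5.13%, against 4.26% and 4.17%). It was 733 without acutely isolated replicate 1 (6.82%, against 5.49%). A shared open region was at the promoter of 89.5% of the genes called higher in ECs and of 44.0% of those called lower. Of 566 genes called both higher in ECs and lower in culture, 488 (86.2%) had one. This comparison and that with culture share the acutely isolated libraries.

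The list of general EC genes holds 30 genes, of which 27 had a shared open region, beside 77.1% of all genes tested. Of these 27, 9 were called lower and 1 higher in culture, beside 10.2% lower and 13.5% higher among all genes tested, and 17 were not called. Cdh5, which codes for VE-cadherin of the EC junction, had promoter heights of 13.2 and 11.1 in the acutely isolated libraries and of 6.50, 7.61 and 8.23 (lowest, median and highest) in WT cultures. Its TPM was 136 and 153 against 136, 225 and 295, and the log2 fold change of its counts was -0.65 (SE 0.58, edgeR adjusted p 0.386). The TPM, which is corrected for transcript length, and the counts thus pointed in opposite directions, and with an offset for transcript length the log2 fold change was 0.14 (edgeR adjusted p 0.849). Against WT replicates 3 and 4 alone, the libraries of the other facility, Cdh5 was at -1.90 (edgeR adjusted p 0.00511). Flt1 had promoter heights of 11.5 and 10.5 against 4.80, 5.53 and 7.16, and its TPM was 1175 and 1134 against 44.4, 61.9 and 98.7, so that its RNA fell (log2 fold change -4.54, SE 0.58, edgeR adjusted p 0.000562). Kdr, which codes for the main VEGF receptor, fell by 3.50 on the log2 scale, with a TPM of 176 and 172 against 28.4, 32.5 and 55.5, where the highest value stood apart from the others. The RNA of Ptprb, whose promoter height was among the most reduced, fell by 2.96. Emcn, which codes for the surface glycoprotein endomucin, rose by 2.83 (edgeR adjusted p 0.00427) although its promoter height, with a median of 5.81 and a highest value of 6.31 in WT cultures, was above these in both acutely isolated libraries. Over the list 6 promoter regions were over 2-fold higher in acutely isolated ECs and none in culture. The calls of Cldn5, Ets1, Ets2 and Gata2 were lost in at least 1 alternative.

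Of 26 blood-brain barrier genes, 18 (69.2%) had a shared open region, beside 27 of 30 (90.0%) general EC genes and 77.1% of all genes tested, and the difference was not tested. Of the 18, 15 were called lower and none higher, with a median log2 fold change of -2.60 against 0.10 for all genes. The calls of Foxf2, Ocln and Slc7a5 were lost in at least 1 alternative. The list was compiled from known barrier genes with the study in view, so that its direction is no independent evidence. Among the 8 without one were the transporter genes Slco1c1, Slco1a4, Slc22a8 and Slc38a5. Mfsd2a, which codes for the lipid transporter of the barrier, had promoter heights of 11.3 and 9.12 against 4.43, 7.61 and 9.31. These overlap only before centring. In centred log2 height the acutely isolated ECs were higher by 0.74, which is under 2-fold. Its TPM was 312 and 210 against 0.760, 2.11 and 2.88 (log2 fold change -7.46, SE 0.48, edgeR adjusted p 3.32e-05). Slc2a1, which codes for the glucose transporter GLUT1, had heights of 12.4 and 10.8 against 7.77, 9.87 and 11.5 and fell by 2.07. Jam2, a junction gene, had a promoter on the acute side, at 13.9 and 13.1 against 3.85, 5.36 and 5.83, and its RNA fell by 4.31.

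Abcb1a, which codes for the efflux pump P-glycoprotein, went the other way in the 2 readouts. Its promoter heights were 3.53 and 3.41 in the acutely isolated libraries and 6.78, 12.0 and 13.4 in WT cultures, so that both were below each culture. Its TPM was 688 and 1689 against 24.4, 40.1 and 69.8, and its RNA fell (log2 fold change -4.02, SE 0.60, edgeR adjusted p 0.00106). The AP-1 match of this promoter is shown in the printed sequence.

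In the beta-catenin pathway, 18 of 22 genes had a shared open region, beside 77.1% of all genes tested. Of the 18, 10 were called lower and 1 higher, beside 10.2% lower and 13.5% higher among all genes tested. Receptors and ligand cofactors included Fzd6, which fell by 2.25, and Reck, which fell by 2.49. Among the factors, Lef1, which binds DNA with beta-catenin, fell by 4.63 with promoter heights of 4.07 and 4.93 against 4.44, 7.50 and 8.26. The target gene Axin2, a feedback inhibitor of the pathway, had heights of 11.1 and 10.8 against 7.09, 11.2 and 14.9, which overlap. Its TPM was 51.8 and 47.0 against 0.0998, 0.164 and 0.269 (log2 fold change -8.29, SE 0.70, edgeR adjusted p 9.75e-05). Notum, which codes for a secreted Wnt deacylase, fell by 8.98 with a TPM of 26.7 and 70.3 against 0, 0.0702 and 0.239. Sp5, another target in other tissues, rose by 5.91 with a TPM of 0.0775 and 0.0794 against 7.54, 18.1 and 35.4, at promoter heights of 10.0 and 8.64 against 8.43, 9.50 and 10.1. None of the 18 promoter regions differed by over 2-fold in height between the groups with no overlap. The calls of Ctnnb1, Gsk3b and Lrp6 were lost in at least 1 alternative.

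AP-1 genes had a shared open region in 10 of 11, all but Fosl1, beside 77.1% of all genes tested. None of these regions was over 2-fold higher on either side. Maff and Mafk, which code for small MAF proteins, were called higher, and Jun lower. Among all genes tested 13.5% were called higher and 10.2% lower. Each of the calls of Maff, Mafk and Jun was lost in at least 1 alternative. Fosl2 and Jund, which the study reports as higher in culture, were not called here. By counts the log2 fold changes were 1.02 (edgeR adjusted p 0.291) and 0.21 (edgeR adjusted p 0.634). Their TPM in each WT culture was above both acutely isolated libraries, at 6.49 and 14.0 against 23.9, 33.7 and 63.4 for Fosl2. For Jund it was 24.3 and 38.7 against 84.3, 190 and 623. Fos was at 13.4 and 196 TPM in the acutely isolated libraries and at 12.7, 14.2 and 260 in WT cultures, so that its spread within a group covered any difference. Of 14 genes for YAP, TEAD and their targets, 10 had a shared open region, beside 77.1% of all genes tested. Of these 10, 4 were called higher and none lower, beside 13.5% and 10.2% of all genes tested. Ccn2, which codes for a matrix protein, had promoter heights of 10.0 and 9.22 against 5.17, 5.80 and 8.39, and a TPM of 29.3 and 15.5 against 950, 2767 and 4510 (log2 fold change 6.21, SE 0.92, edgeR adjusted p 0.00103). Ccn1 rose by 3.99 and had heights of 8.03 and 7.50 against 3.65, 4.11 and 4.58. Thbs1, which codes for thrombospondin, had heights of 3.30 and 3.07 against 6.31, 6.92 and 7.78, and a TPM of 0.320 and 0.385 against 478, 808 and 1126 (log2 fold change 9.64, SE 0.79, edgeR adjusted p 8.65e-05). In centred log2 height the promoter difference, acutely isolated minus WT cultures, was 1.11 for Ccn1, 0.81 for Ccn2 and -0.94 for Thbs1. Only the Ccn1 promoter differed by over 2-fold with no overlap between the groups, while the RNA of each gene rose.

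**Figure D5:**
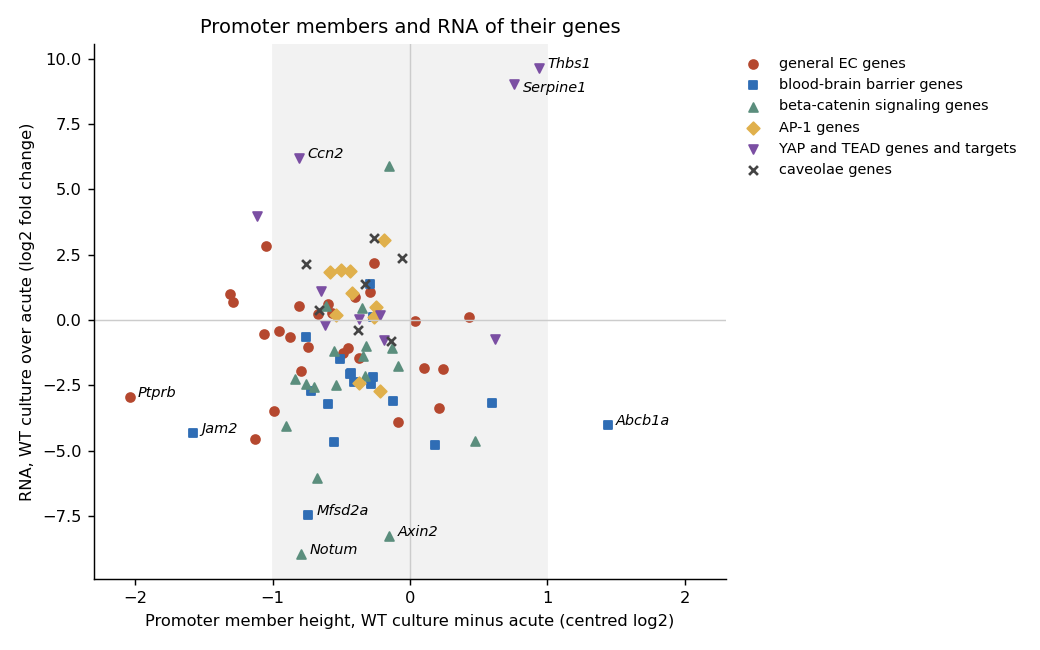
Log2 fold change of RNA between WT cultures and acutely isolated ECs (y axis) by the difference in centred log2 height of the shared open region at the promoter, WT culture minus acute (x axis), for the genes of 6 lists, with differences in height of under 2-fold shaded. Axin2, Notum and Mfsd2a lie in the shaded band with RNA changes of -8.29, -8.98 and -7.46, and Abcb1a at the right of it with -4.02.

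All 7 caveolae genes and all 12 KLF and SP genes had a shared open region, beside 77.1% of all genes tested. Of the caveolae genes Cav1, which codes for caveolin, rose by 3.15 and Cavin3 by 2.38, and Ehd4 was called higher at 1.36 but stood at -0.54 with an offset for transcript length. Of the KLF and SP genes 6 were called lower and none higher, beside 10.2% and 13.5% of all genes tested. Among the 6 were Klf2 (-2.35) and Klf4 (-6.09), factors that respond to blood flow, at promoter heights whose difference was under 2-fold. Among lists of genes used by every cell, a shared open region was at the promoter of 27 of 27 proteasome subunits, 44 of 47 cytosolic ribosomal proteins, 8 of 8 genes for cohesin and CTCF, 14 of 15 housekeeping genes and 13 of 15 cell cycle genes. Of these, 25 of the 44 ribosomal protein genes and 11 of the 27 proteasome genes were called higher in culture and none lower, and 6 of the 8 cohesin and CTCF genes were called lower and none higher, beside 13.5% higher and 10.2% lower among all genes tested.

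The genes with the largest RNA changes among those with a shared open region included several that were absent on one side. Gtse1 and Psrc1, which act on microtubules in mitosis, had no counts in the acutely isolated ECs and were at least 1363-fold and 894-fold higher in culture by the mean of the cultures (1081-fold and 584-fold by the lowest culture library), with 3 counts over the group as the upper limit of a count of 0. Gtse1 had promoter heights of 13.9 and 11.2 in the acutely isolated ECs and of 9.84, 20.1 and 23.5 in culture, which overlap. For Arhgap22 the bound was at least 1210-fold, and the heights were 4.18 and 3.40 against 11.1, 14.8 and 18.6, without overlap. By the mean of the cultures AA467197 was at least 5262-fold and Dynlt1b at least 5098-fold higher, and by the lowest culture library at least 1955-fold and 1834-fold. The TPM of Dynlt1b was 533 and 618 in WT replicates 3 and 4, the libraries of the other facility. It was from 51.2 to 72.3 in the other WT cultures, and Dynlt1b has near-identical copies whose reads cannot be told apart. Ddc, which codes for the decarboxylase of dopamine and serotonin synthesis, fell by 11.37 (edgeR adjusted p 2.53e-05), with promoter heights of 7.61 and 5.81 against 9.39, 10.3 and 12.6. Pet117, which shares its promoter region with another gene, was at least 426-fold lower. Gm10719, Gm10800 and Gm10801 were also called lower and belong to multicopy families, so that their counts and heights are uncertain.

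Open promoters without RNA were found as well. Elovl2, which codes for a fatty acid elongase, had promoter heights of 10.6 and 11.9 in the acutely isolated ECs and of 5.85, 12.5 and 18.6 in culture, but a TPM of 0.0176 and 0.00280 in the ECs, against 18.1 and 32.3 in GFP-negative cells (log2 fold change -10.47, edgeR adjusted p 0.00182). Its highest TPM in culture was 0.0245. Fa2h, which codes for a hydroxylase of myelin lipids, and Wif1, which codes for a secreted Wnt inhibitor, showed the same arrangement, with heights of 11.1 and 7.21 and of 9.29 and 9.05 in the acutely isolated ECs. Wif1 had no counts in the acutely isolated ECs and was at least 1534-fold lower than in GFP-negative cells by their mean and 744-fold by the lowest library. On the other side Tbx1 was at least 392-fold and Gm49391 at least 1227-fold higher in the ECs by their mean (264-fold and 796-fold by the lowest library), as GFP-negative cells held no count of either, and Gm49391 shares its region with 2 other genes. Cldn5, which codes for the main claudin of the EC junction, was higher in ECs by 9.75 on the log2 scale (SE 1.13, edgeR adjusted p 0.00318).

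Genes nearest a distal shared open region were counted in the same way. Of the 3839 with RNA values, 18.9% of the 3336 tested were called on the side of ECs and 7.40% on that of GFP-negative cells, and 17.5% of 3210 were called lower and 12.4% higher in culture. Among all genes tested the shares were 8.28% and 7.55% in the first comparison and 10.2% and 13.5% in the second. For genes with a promoter region they were 10.5% and 4.72%, and 11.7% and 15.8%. For the 169 genes nearest a distal region that was over 2-fold higher in acutely isolated ECs, 44 of 152 tested (28.9%) were called lower and 12 (7.89%) higher in culture. For the 1028 nearest a distal region over 2-fold higher in culture, 161 of 891 (18.1%) were lower and 122 (13.7%) higher. At promoters, of 309 genes tested whose region was over 2-fold higher in culture, 52 (16.8%) were called higher and 18 (5.83%) lower, and of 135 whose region was over 2-fold higher in acutely isolated ECs 25 (18.5%) were higher and 32 (23.7%) lower. The nearest gene need not be the one a distal region acts on.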

How the data were processed

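ATAC-seq peak lists (2 acutely isolated, 6 WT and 2 stabilized cultures) and RNA-seq transcript tables (2 acutely isolated EC, 2 GFP-negative and 6 WT culture libraries) were used. The tables of stabilized RNA were not used here. Per the study's methods, the authors aligned ATAC-seq reads to GRCm38 with HISAT2 (2.1.0), removed duplicates with Picard and called peaks for each library with MACS2 (2.1.2), with reads shifted and extended so that each was centred on the cut of the transposase. The deposited peak lists give the fold enrichment at the summit, the -log10 p and -log10 q, and a score, which is a truncated multiple of the -log10 q. A later filter of the authors (fold enrichment over 2 and -log10 q over 2) had not been applied to the deposited lists, where it would remove 30 to 108 peaks a list. Fold enrichment is limited by the depth and background of each library, and the read depth behind the lists is not given in the sources used here. The authors quantified RNA with Salmon (0.14.0) on GENCODE M21 transcripts, and the deposited tables hold an estimated count, a TPM and an effective length for each transcript. For acutely isolated cells the authors combined data of cerebrum and cerebellum.

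Peaks of the 8 lists were merged, and promoters were taken from GENCODE M21 transcript starts. Motifs were counted with a script in the RefSeq sequence of GRCm38. Estimated counts were summed to genes and rounded. They were tested with edgeR (4.0.16, TMM, filterByExpr, quasi-likelihood F-test), with DESeq2 (1.42.0) as an alternative, and heights with limma (3.58.1), in R 4.3.3 and Python 3.11.15. Each adjusted p is a Benjamini-Hochberg value over all genes or intervals tested. Counts were not corrected for transcript length in the main test, as single and paired reads differ between groups. The scripts were tested on simulated data with 200 changed genes or regions. RNA changes of 3 in log2 were recovered for 60% of the genes in the culture comparison and for 70% in that with GFP-negative cells. EBSeq, the tool the authors used for RNA, was not used here.

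The shared open regions and the gene lists were chosen with earlier results of these data known. Named regions were the 10 highest, the 5 with the largest height difference in each direction, the 5 nearest the threshold on either side, and the 5 of lowest p in each direction against stabilized cultures, with a selection of these given. Named genes were those of the lists and the 5 with the largest RNA change in each direction. The examples within lists, the KLF genes, the genes with many distal regions, the regions without a stabilized peak and the intervals called outside the set were picked after their values were seen. Some items are not reported here.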

Additional observations from a re-analysis of the deposited data

Results flagged for a closer look

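In 142 groups of 4 to 10 libraries, the most extreme library was compared with the others by Dixon's ratio of gap to range, which chance passes in about 1 group of 20, and 3 groups passed. The height of the region near Rab10 was 42.9 in WT culture replicate 1, against 44.2 in the next library and 44.8 in the highest. The TPM of Kdr was 55.5 in WT culture replicate 2, against 38.4 in the next and 28.4 in the lowest. The TPM of Wif1 was 0.0150 in WT culture replicate 2 and 0 in the other WT cultures.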

How the results depend on the processing

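The number of shared open regions ranged from 14640 to 16953 under stricter peak or summit rules and from 16974 to 19734 without 1 library. The promoter share was 63.6% with a -log10 q over 5, 60.6% with a window of 250 bases before to 50 after the start, 57.9% by the summit and 52.3% by gene starts only, which was chosen after seeing the data. Without 1 library it ranged from 56.4% to 61.7%, with the lowest value without WT culture replicate 2. The share with a peak in both stabilized lists ranged from 99.41% to 99.85% without 1 library. AP-1 matches in distal regions were in 28.7% with windows of 500 bases and in 17.0% at the summit of an acutely isolated list, and SP/KLF matches at promoters in 28.6% and 21.8%. By percentile rank, 2436 regions were above every culture in both acutely isolated libraries. In the stabilized comparison, 3 regions were called higher with summed fold enrichment, 1046 higher and 332 lower against WT replicates 3 and 4, and 1685 and 110 against replicates 5 and 6. Over all 59167 intervals tested, 5034 and 2883 were called against replicates 3 and 4, and 4945 and 2870 against replicates 5 and 6. The cause of these changes was not tested.

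For genes with a shared open region, 1097 were called higher and 694 lower in culture with the wells of an experiment summed, which leaves fewer libraries. These were 10.3% and 6.50%, against 8.91% and 5.93% of all genes tested. Single experiments gave more calls than all together, and this alternative was chosen after seeing the data. Between ECs and GFP-negative cells, 918 were called lower without the TPM minimum (8.63%, against 19.7% of all genes tested). With an offset for transcript length 575 were called higher (5.41%, against 4.45%). Without 1 library the higher calls ranged from 551 (5.13%, against 4.17%) to 1485 (13.8%, against 10.4%). Of the named genes, Ehd4 reversed, at -0.54 with that offset. Of 1890 values for 105 named genes in the culture comparison, 1730 kept direction and side of the threshold, and 998 of 1059 did for 106 genes in the other. With the replicate number as a block, 1661 and 1567 were called in culture (15.6% and 14.7%, against 13.4% and 12.7% of all genes tested). Between ECs and GFP-negative cells 891 and 434 were called (8.38% and 4.08%, against 6.73% and 6.96%). Deviations of libraries with the same number correlated at -0.0272, 0.0328 and 0.0671. These values compare different kinds of cell, and whether libraries with the same number came from the same mice or the same sort was not tested. Stabilized and WT flex3 libraries share no number. With 2 acutely isolated libraries, every comparison with them rests on their spread.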
